A study of Mus musculus with 2 samples.

Results

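The transcripts of 8 genes of the caspase and apoptosome pathway were compared between the second polar body (PB2) and the zygote of the mouse. The genes are Casp2, Casp6, Casp8, Casp9, Apaf1, Cycs, Xiap and Diablo. They were taken by symbol from a list of names, and all 8 were found among the 11262 genes of the table analysed here. PB2 is the small cell that the egg extrudes when it completes its second meiotic division after fertilization, and the zygote is the fertilized egg itself. Both libraries came from untreated C57BL/6 embryos (C57BL/6N where the authors name the strain of their experiments) at the late 1-cell stage. Per the methods, embryos came from females injected with the hormones PMSG and HCG to superovulate and then mated. The zona pellucida was removed with acid, PB2 was detached from the zygote with trypsin and pipetting, and polyadenylated RNA of each fraction was amplified as full-length cDNA and sequenced. There was 1 library of PB2 and 1 of the zygote, each made from pooled material, so no spread between samples is known, no test could be run and each difference describes these 2 libraries only.

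Caspases are cysteine proteases that dismantle a cell during apoptosis, the regulated form of cell death. In the mitochondrial route, cytochrome c (Cycs) leaves the mitochondria and binds Apaf1, which assembles into a wheel-shaped complex, the apoptosome, and activates the initiator caspase Casp9. In the death receptor route, adaptor proteins activate the initiator Casp8 at the cell membrane. Both routes converge on executioner caspases, among them Casp6. Xiap binds and inhibits Casp9 and some, but not all, executioner caspases, and Diablo, also called Smac, leaves the mitochondria and displaces Xiap from them. Casp2 is an initiator that the PIDDosome complex can activate, and it is best known in female germ cells for a part in oocyte death.

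The 4 caspases share the active site that gives the family its name. Their longest coding transcripts in GENCODE M21 (GRCm38) each hold the active-site pentapeptide (QACRG, QACQG or QACGG), which was found in 0.117% of the 11146 genes of the table with a complete start of the coding sequence. The coding strand around it is shown for the 4 caspases, with the codon of the catalytic cysteine in capitals.
Casp2: ttcatccaagcaTGTcgtggagatgag
Casp6: atcatccaggccTGTcggggtagccag
Casp8: ttcattcaggctTGCcaaggaagtaac
Casp9: ttcatccaggccTGCggtggtgagcag

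Each of these windows has 27 bases, all on the plus strand. Any pair of them shared between 16 bases, for Casp8 and Casp9, and 20 bases, for Casp2 with Casp9 and for Casp6 with Casp9. The Casp8 window lies within exon 8, at chr1:58844607-58844633. The other windows cross an exon junction, so that their genomic spans include an intron. They are chr6:42276764-42279781 for Casp2, chr3:129910690-129912135 for Casp6 and chr4:141807241-141811543 for Casp9. The junction falls after base 22 of the window in both Casp2 and Casp9, and after base 9 in Casp6.

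Values are TPM, which scale the reads of a gene by its length and by the total of its library. TPM is set side by side below between genes of a library and between libraries. This scaling does not remove the trends with GC content and transcript length given below, so such ratios are approximate. TPM gives proportions, so fewer copies of a transcript and more of all others cannot be told apart. The table was deposited to 1 decimal, with a smallest value above 0 of 0.1 TPM, and the depth of both libraries is unknown. The ranges given with ratios below cover this rounding and no counting error. The log2 ratio of a gene is the base-2 logarithm of its PB2 value over its zygote value, with 1 TPM added to each, and a gene was compared if it had at least 1 TPM in either library. This left 7 of the 8 genes, since Casp6 stayed under 1 TPM, and 10645 genes in all.

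The markers of the labelled cells were present. All 10 oocyte and zygote markers were in the table, with at least 62.7 TPM in the zygotic library and 99.5 TPM in PB2, the lowest being Mos and Zp2. Of 14 cumulus and granulosa cell markers 4 were in the table, with a summed level of 80.7 TPM in the zygotic library and 79.7 TPM in PB2. Most of this was Cyp19a1, at 72.2 and 70.9 TPM. Kitl had 6.3 and 4.7 TPM and Fshr 2.2 and 3.3 TPM. Cyp11a1 was listed at 0 in the zygote and at 0.8 TPM in PB2. Of 5 sperm markers 1 was in the table, Prm2, with 19.8 and 22.0 TPM, and of 3 blood markers none was. A marker that is not in the table has no value, so its absence from the material is not known. A part of other cells in the values below was not tested. The values of the table added up to 927063 TPM in the zygotic library and 898326 TPM in PB2.

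Of the 7 genes compared, 1, Casp2, passed 2-fold towards PB2 and 0 passed 2-fold towards the zygote. Of all 10645 genes, 18.9% passed 2-fold towards PB2 and 8.09% towards the zygote, so a single gene of 7 is close to the background. The median log2 ratio was -0.04 for the 7 genes and 0.21 for all genes compared. With all log2 ratios centred on that median, 0 of the 7 were 2-fold apart, and the counts over all genes moved from 2009 in PB2 and 861 in the zygote to 1383 and 1291. The levels were far more uneven between genes than between libraries. Casp8 and Cycs together held 89.0% of the 216.6 TPM that the 8 genes had in the zygote, and 83.5% of their 182.8 TPM in PB2.

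**Figure D1:**
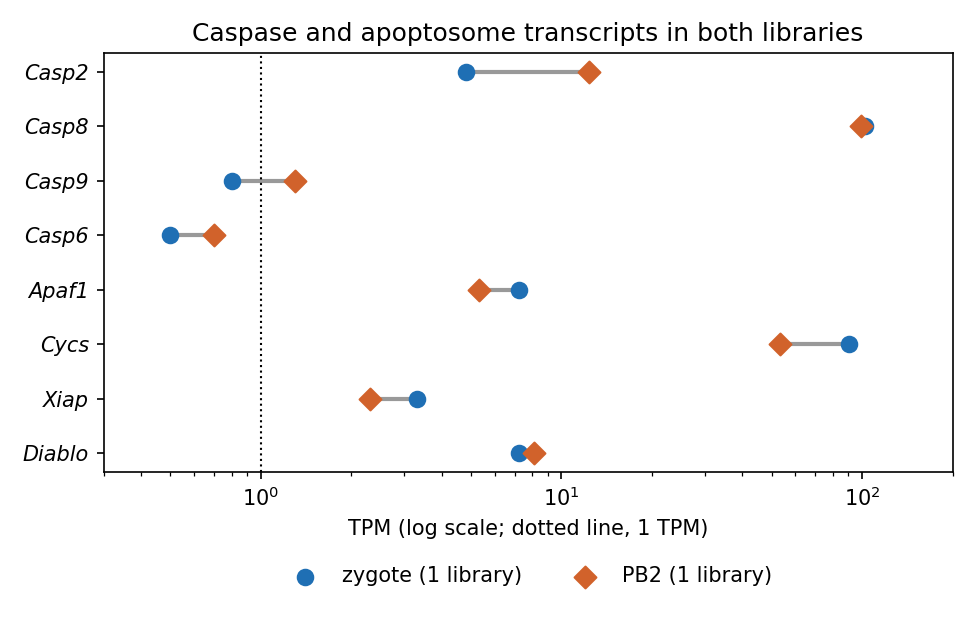
TPM of the 8 genes (log axis) in the zygote library (circles) and the PB2 library (diamonds), with 1 library each and no error bars. Casp8 and Cycs lie above 50 TPM in both libraries, Casp6 lies under 1 TPM in both, and Casp2 has the widest gap, from 4.8 to 12.4 TPM.

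Casp2, the initiator of the PIDDosome, had 4.8 TPM in the zygotic library against 12.4 TPM in PB2. The PB2 value was 2.58 times the zygote value (rounding range 2.55 to 2.62), and the log2 ratio was 1.21. Of all genes compared, 13.1% had a larger log2 ratio. Its rank differed too, with 61.7% of all genes more abundant in the zygote and 47.8% in PB2. Centred on the median of all genes the log2 ratio was 1.00, just under 2-fold before rounding, and with the trend on transcript length removed it was 0.85. Casp2 (ENSMUSG00000029863) lies on the plus strand of chromosome 6, at chr6:42264985-42282508, and its longest coding transcript has 11 exons and 3529 bases. Values per gene do not separate its isoforms. Cradd, the adaptor that links Casp2 to the PIDDosome scaffold, had 5.3 TPM in the zygotic library and 6.7 TPM in PB2, giving a log2 ratio of 0.29. The scaffold gene Pidd1 was not among the genes of the table analysed here, so it has no value in either library. The genes nearest to Casp2 over both libraries, by distance on the log2(TPM + 1) scale, were Xrcc3, with 4.9 TPM in the zygotic library and 12.2 TPM in PB2, Cd151, with 5.0 and 12.4 TPM, and Ptdss2, with 4.6 and 12.4 TPM.

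Casp8, the initiator of the death receptor route, was the most abundant of the 8 genes, at 102.1 TPM in the zygotic library and 99.2 TPM in PB2. The PB2 value was 0.972 times the zygote value (0.971 to 0.973) and the log2 ratio -0.04. Only 11.2% of all genes had a higher TPM in the zygote, and 12.7% in PB2. Casp8 made up 94.4% of the summed TPM of the 4 caspases in the zygote and 87.3% in PB2, while Casp2 made up 4.44% and 10.9%. The level of Casp8 was 21.3 times that of Casp2 in the zygote and 8.0 times in PB2. Casp8 (ENSMUSG00000026029) lies at chr1:58795374-58847503 on the plus strand. It overlaps the unclassified gene Gm37760 on the same strand over 3841 bases, and how overlapping reads were assigned is not stated. By the same distance Rpl41 (103.6 and 99.5 TPM), Rhd (101.1 and 101.4 TPM) and Tma7 (99.8 and 101.2 TPM) were nearest to Casp8, where the first value is the zygote's.

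**Figure D2:**
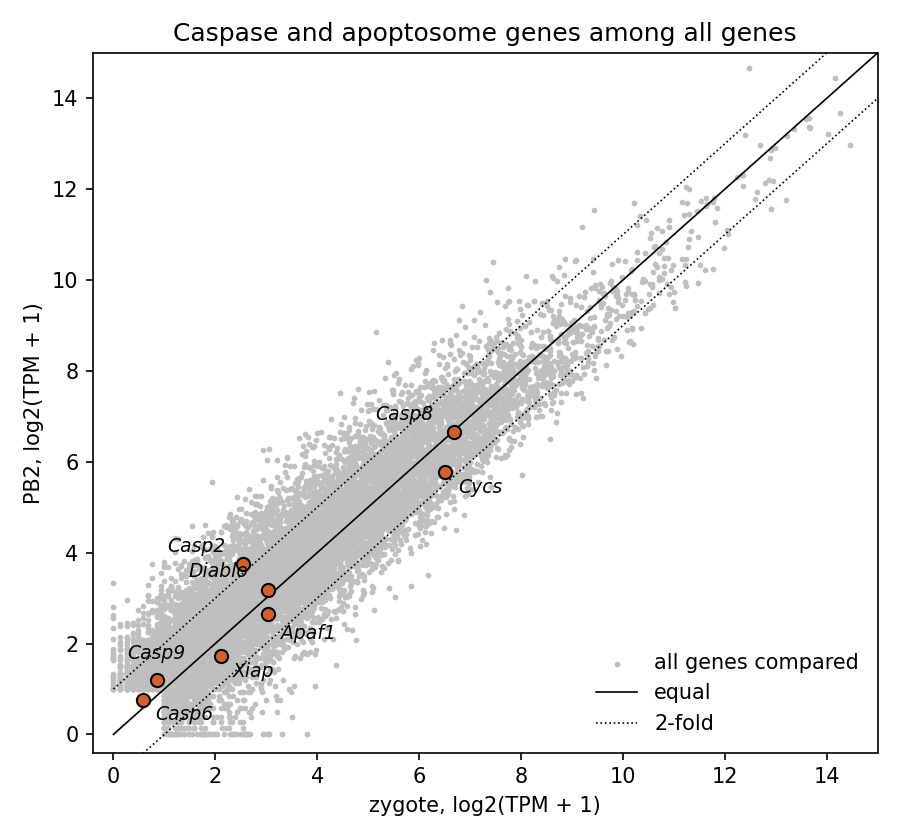
PB2 against zygote on the log2(TPM + 1) scale for the 10645 genes compared (grey) and the 8 caspase and apoptosome genes (orange), with lines of equality and of 2-fold difference. Casp2 lies just above the upper 2-fold line, Casp8 on the line of equality, and the other genes between the 2-fold lines.

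The other caspases of the group were scarce. Casp9, the initiator that the apoptosome activates, had 0.8 TPM in the zygotic library and 1.3 TPM in PB2, a ratio of 1.62 (1.47 to 1.80) and a log2 ratio of 0.35. It was exceeded by 89.5% of all genes in the zygote and 87.5% in PB2. Casp6, an executioner, had 0.5 TPM in the zygotic library and 0.7 TPM in PB2, a ratio of 1.40 that rounding lets reach 1.67, and no difference is read from it. Casp9 (ENSMUSG00000028914, chr4:141793612-141815976) overlaps Cela2a and Ctrc on the opposite strand over 1015 bases each. Casp6 (ENSMUSG00000027997) lies at chr3:129901425-129914103.

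Within the apoptosome the components differed widely in level, and Cycs had 113 times the TPM of Casp9 in the zygote and 41.2 times in PB2. Apaf1, the scaffold, had 7.2 TPM in the zygotic library and 5.3 TPM in PB2, and the log2 ratio was -0.38. Cycs, which carries electrons in the respiratory chain of a living cell, had 90.7 TPM in the zygotic library and 53.5 TPM in PB2. The zygote value of Cycs was 1.70 times that of PB2 (1.69 to 1.70) and the log2 ratio was -0.75, the lowest of the 8 genes and lower than those of 86.8% of all genes compared. Cycs was 12.6 times as abundant as Apaf1 in the zygote and 10.1 times in PB2. Apaf1 was in turn 9.0 times as abundant as Casp9 in the zygote (8.41 to 9.67) and 4.08 times in PB2 (3.89 to 4.28). The order Cycs, Apaf1, Casp9 was thus the same in both libraries. Both steps were smaller in PB2, and the step from Apaf1 to Casp9 rests on Casp9 values near 1 TPM. Casp9 reached 1 TPM in PB2 only. With the GC trend removed the log2 ratios of Apaf1 and Casp9 were -0.37 and -0.18, closer together than the -0.38 and 0.35 of the values as deposited. Those of Cycs and Apaf1 were -0.46 and -0.37, also closer together than the -0.75 and -0.38 as deposited.

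Apaf1 (ENSMUSG00000019979) lies on the minus strand at chr10:90989311-91082770, and its longest coding transcript of 6577 bases has 27 exons. Cycs (ENSMUSG00000063694) lies on the minus strand at chr6:50562563-50566538. Mammalian genomes hold many processed copies of Cycs, which could take or lend reads, so its value is uncertain in both libraries.

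Xiap, the inhibitor, and Diablo, its antagonist, differed little between the libraries. Xiap had 3.3 TPM in the zygotic library and 2.3 TPM in PB2, a ratio of 0.697 (0.672 to 0.723) and a log2 ratio of -0.38. Diablo had 7.2 TPM in the zygotic library and 8.1 TPM in PB2, a ratio of 1.12 (1.11 to 1.14) and a log2 ratio of 0.15. Neither was 2-fold apart, and both signs depend on the processing, with a log2 ratio of 0.10 for Xiap once the GC trend was removed and of -0.14 for Diablo once the length trend was removed. The level of Diablo was 2.18 times that of Xiap in the zygote (2.13 to 2.23) and 3.52 times in PB2 (3.43 to 3.62). The levels of Apaf1 and Diablo were equal in the zygote, at 7.2 TPM. Xiap (ENSMUSG00000025860) lies on chromosome X, at chrX:42059679-42109656, and Diablo (ENSMUSG00000029433) at chr5:123509765-123524176 on the minus strand. Diablo shares 12095 bases of its span with Gm49027, a coding gene on the same strand, so part of its reads may have been assigned otherwise.

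The log2 ratio of these libraries followed the GC content of the transcripts, and the 7 genes were set against that trend. The 1061 genes lowest in GC had a median log2 ratio of -0.36 and the 1061 highest a median of 0.93. Xiap and Cycs, with 36.8% and 40.8% GC, belong to the former. For Xiap the log2 ratio after removal of the trend was 0.10, and for Cycs it was -0.46. Casp9, with 53.4% GC, went from 0.35 to -0.18, so its sign, like that of Xiap, depends on the trend. Casp2 has 47.7% GC, near the middle, and kept a log2 ratio of 1.11. Of the 1060 genes with 47.4% to 49.1% GC, 11.6% passed 2-fold towards PB2. Casp8 (46.6% GC) had -0.07, Apaf1 (46.0%) -0.37 and Diablo (44.0%) 0.27 after removal. A part of GC content in the values was not tested beyond this.

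**Figure D3:**
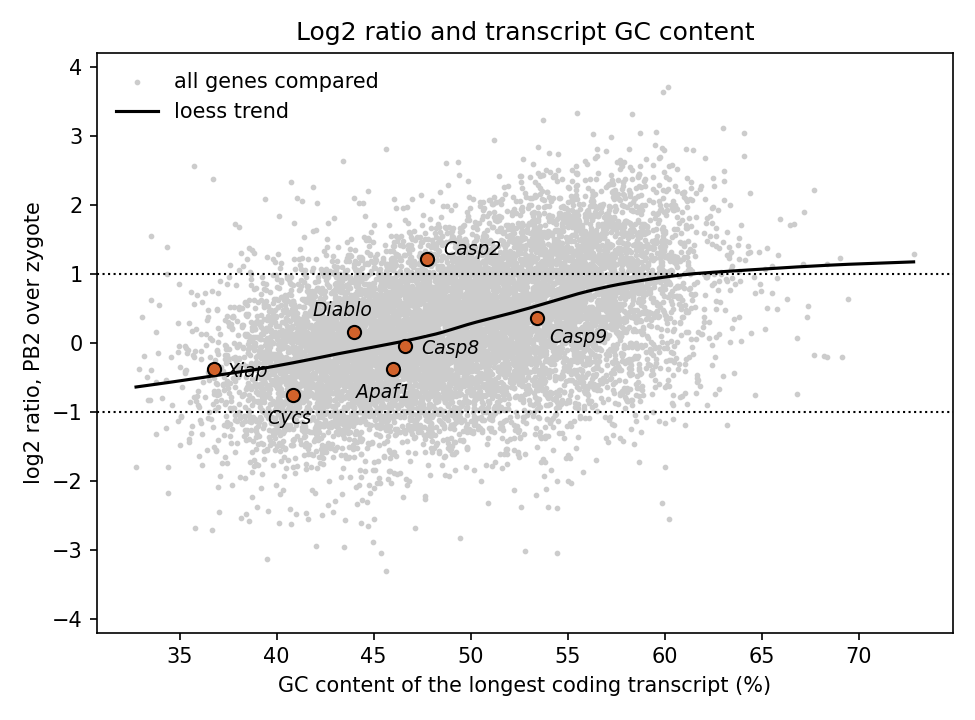
Log2 ratio of PB2 over zygote against the GC content of the longest coding transcript for all genes compared (grey), with the loess trend (line), 2-fold lines (dotted) and the 7 genes compared (orange). Casp2 lies 1.11 above the trend, and the other 6 genes lie within 0.46 of it.

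Maternal transcripts of the egg are often regulated through the cytoplasmic polyadenylation element, a short U-rich motif near the end of the transcript. In the last 100 bases of the longest coding transcript TTTTAT or TTTTAAT, searched on the transcript strand, was found in 1 of the 8 genes, Casp9, and in 19.8% of the genes of the table. These letters were not in that window of the transcripts of Casp2, Casp6, Casp8, Apaf1, Cycs, Xiap and Diablo.

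The surrounding pathway was described through a list of 49 other genes, of which 33 were in the table and 32 were compared. In all, 6 of the 32 passed 2-fold towards PB2, 2 passed it towards the zygote and 24 lay within 2-fold. The shares over all genes were 18.9% and 8.09%. The median log2 ratio was 0.28, against 0.21 for all genes compared. With the GC trend removed 3 passed 2-fold towards PB2 and 4 towards the zygote, and the median was -0.03. The same removal changed the counts over all genes from 2009 to 963 towards PB2 and from 861 to 1162 towards the zygote.

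The genes listed with the regulators of the apoptosome held the largest differences towards the zygote. Cyct, the testis form of cytochrome c and not itself a regulator, had 15.3 TPM in the zygotic library and 4.6 TPM in PB2. Its log2 ratio was -1.54. Aven, which binds Apaf1 and hinders its assembly, had 117.3 and 51.8 TPM, a log2 ratio of -1.16. Ptma, prothymosin alpha, an inhibitor of apoptosome formation, lay on the other side with 67.8 TPM in the zygotic library and 200.1 TPM in PB2, giving a log2 ratio of 1.55. The log2 ratios of these genes stayed past 2-fold with the GC trend removed, at -1.33, -1.22 and 1.56. Apip, an enzyme of methionine salvage that also binds Apaf1, was the most abundant of the 8 genes so listed, with 400.0 TPM in the zygotic library and 256.0 TPM in PB2. Hspa8, a chaperone, had 85.1 and 50.3 TPM, a log2 ratio of -0.75 that passed 2-fold, at -1.11, with the GC trend removed. Of these 8 listed genes 1 passed 2-fold towards PB2 and 2, with Cyct among them, towards the zygote. The shares over all genes were 18.9% and 8.09%. The median log2 ratio of the 8 genes was -0.70, against 0.21 for all genes, and -0.66 with the GC trend removed.

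Within the IAP family, the inhibitors to which Xiap belongs, 5 of 9 listed genes were in the table and compared. Of these, 0 were 2-fold apart in either direction, against 18.9% towards PB2 and 8.09% towards the zygote over all genes. Birc5, known as survivin and for its part in chromosome segregation, had 789.5 TPM in the zygotic library and 409.8 TPM in PB2, giving a log2 ratio of -0.94, and -1.02 with the GC trend removed. Birc3, which acts in receptor signaling, had 199.5 and 286.3 TPM, a log2 ratio of 0.52. Both were far more abundant than Xiap. Naip1 had 16.0 and 19.4 TPM. Birc6 had 5.3 and 6.1 TPM and Birc2 3.7 and 2.9 TPM, nearer to the 3.3 and 2.3 TPM of Xiap. Of the IAP antagonists and mitochondrial factors, Aifm1 had 23.2 TPM in the zygotic library and 22.3 TPM in PB2, and Htra2, a protease that also binds Xiap, had 4.3 and 6.0 TPM. The log2 ratio of Htra2 was 0.40, and -0.41 with the GC trend removed, so its direction turns.

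Of 12 genes listed for the death receptor complex 6 were in the table. Of these 6, 2 passed 2-fold towards PB2 and 0 towards the zygote, against 18.9% and 8.09% of all genes. Their median log2 ratio was 0.16, against 0.21 for all genes. Tnfrsf21, death receptor 6, had 2.2 TPM in the zygotic library and 7.0 TPM in PB2, giving a log2 ratio of 1.32. Fadd, the adaptor that recruits Casp8, had 3.9 and 9.1 TPM, a log2 ratio of 1.04. With the GC trend removed these were 0.86 and 0.67, under 2-fold. Casp8ap2, named for binding Casp8 and known for its role in histone mRNA processing, was the most abundant of the group, with 216.2 TPM in the zygotic library and 172.7 TPM in PB2. Cflar, the catalytically inactive relative that restrains Casp8, had 4.3 and 7.2 TPM, a log2 ratio of 0.63. Ripk1, a kinase of the same complex, had 23.4 and 14.6 TPM, a log2 ratio of -0.65, and Cyld, a deubiquitinase, had 2.6 and 1.8 TPM, a log2 ratio of -0.36.

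Of 10 genes for caspase substrates and execution, 3 passed 2-fold towards PB2 and 0 towards the zygote, against 18.9% and 8.09% of all genes. Their median log2 ratio was 0.74, against 0.21 for all genes, and 0.34 with the GC trend removed. Panx1, a membrane channel that caspases open, had 16.9 TPM in the zygotic library and 52.3 TPM in PB2, giving a log2 ratio of 1.57. Dffa, the inhibitor of the DNA-cutting nuclease Dffb, had 1.1 and 4.6 TPM, a log2 ratio of 1.42. The zygote value of Dffa is near the floor of 1 TPM, and at a filter of 5 TPM Dffa was not compared. Lmna, which encodes lamins A and C, had 7.0 and 20.0 TPM, a log2 ratio of 1.39. With the GC trend removed Panx1 kept 1.29, while Dffa had 0.88 and Lmna 0.47. Rock1, a kinase that caspases cleave and activate, was the most abundant of the group, with 142.0 TPM in the zygotic library and 261.8 TPM in PB2, and its log2 ratio of 0.88 became 1.20 on removal of the trend.

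**Figure D4:**
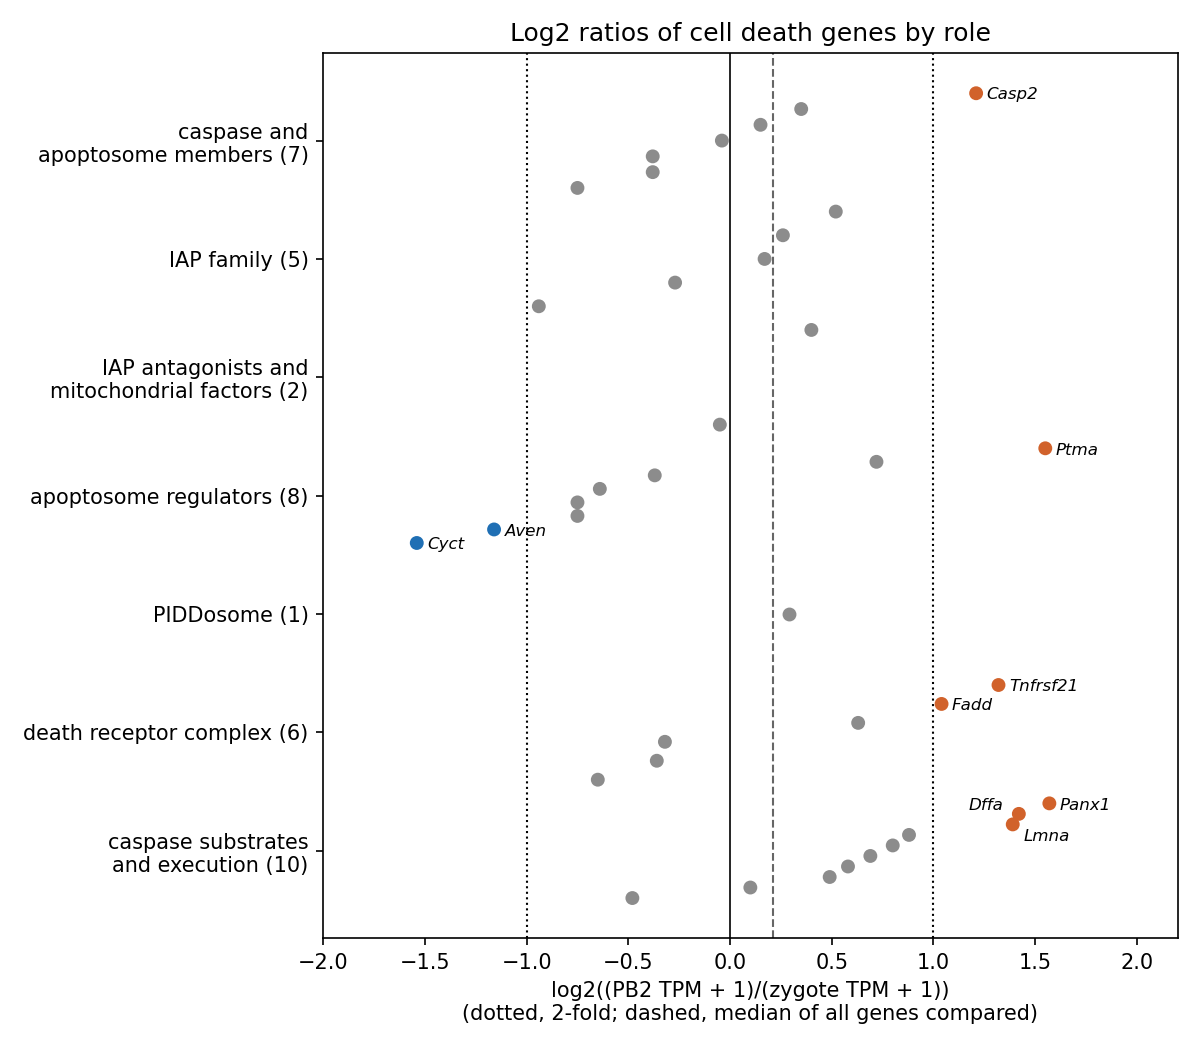
Log2 ratio of PB2 over zygote for the 7 caspase and apoptosome genes compared and the 32 genes of the wider list by role, each point a gene, blue or orange and named when at least 2-fold apart. Casp2 is the 1 named point of the top row, and 8 genes of the other rows lie outside the 2-fold lines.

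**Figure D5:**
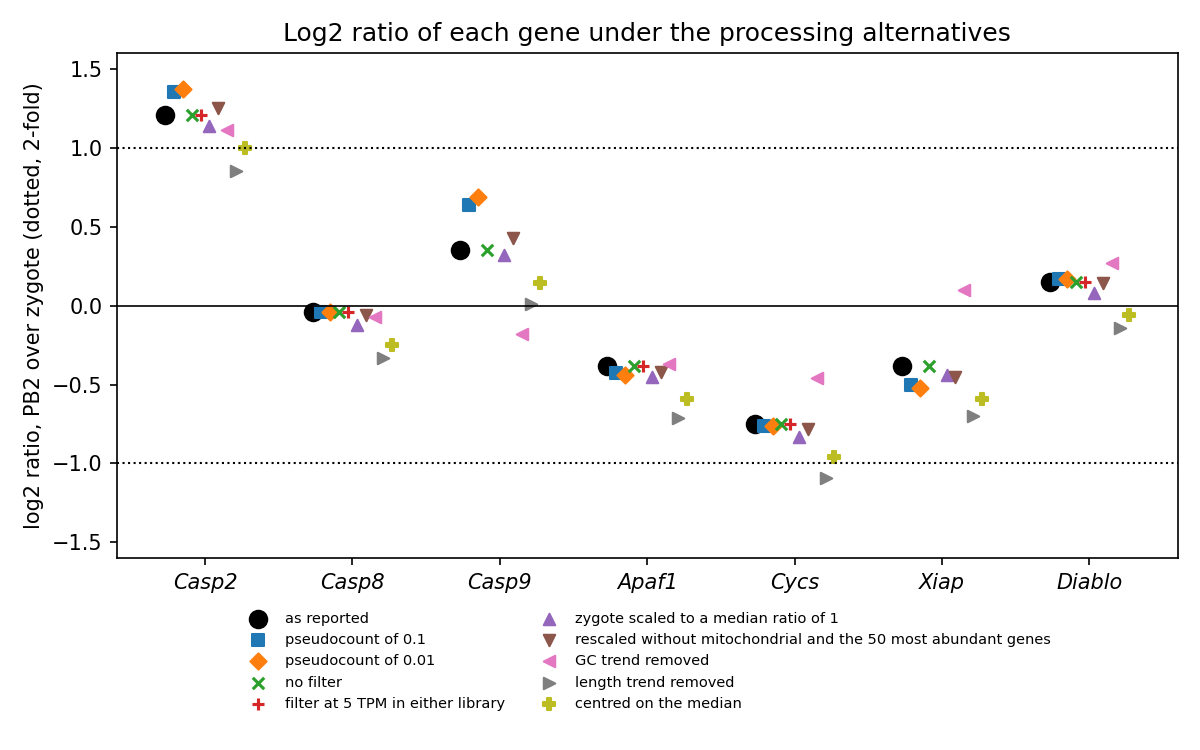
Log2 ratio of the 7 genes compared as reported (black circles) and under each alternative of the processing (other symbols), with 2-fold lines dotted. Casp2 ranges from 0.85 to 1.37 and Casp8 from -0.33 to -0.04, Casp9, Xiap and Diablo have values on both sides of 0, and Cycs passes the lower line only with the length trend removed.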

How the data were processed

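Polyadenylated RNA of PB2s and zygotes was measured in 1 library each. Per the labels and the methods, the authors called bases with CASAVA, aligned reads with HISAT2 2.0.4, counted them with HTSeq 0.6.1p1 on Ensembl annotation 85 and normalized with DESeq2 1.18.1. The notes name both OryCun2.0, a rabbit assembly, and GRCm38, and the identifiers are mouse. The values deposited by the authors are TPM rounded to 1 decimal, and how TPM was computed is not given in the sources used here. Counts cannot be recovered from TPM, so the count test of the study was not repeated. The column named for the polar body was taken as PB2, and the other, named for the 1-cell stage, was inferred to be the zygote, since its name differs from the sample title.

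From TPM, log2 ratios with a pseudocount of 1 were computed over genes with at least 1 TPM in either library and called past 2-fold, with no test. Positions, length and GC content came from GENCODE M21, with the longest protein-coding transcript standing for each gene, and 11221 of 11262 identifiers matched. GC and length trends were fitted by loess (span 0.3). The functions were tested on simulated data. The 8 genes and the lists were chosen with earlier results of these data known. Genes named were the 8 members, the wider-list genes past 2-fold, the most abundant gene of each role and the 3 nearest genes to Casp2 and Casp8. Cflar, Ripk1, Cyld, Birc2, Birc3, Birc6, Naip1, Hspa8 and Htra2 were added to these with their values known. Some genes of the pathway are not reported here. Alternatives were pseudocounts, filters, scalings, thresholds and trend removal. Python 3.11.15, numpy 2.4.6, pandas 2.3.3, statsmodels 0.14.6, biopython 1.88 and matplotlib 3.10.9 were used.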

Additional observations from a re-analysis of the deposited data

How the results depend on the processing

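No paired analysis was possible because PB2 and the zygote have a single library each. Under the alternatives 124 results kept within fixed limits (1.5 times for a count, 0.5 for the log2 ratio of a gene and 0.25 for a median) and 21 moved. No gene past 2-fold among the members changed sign under the alternatives run. With the length trend removed, 0 members were higher in PB2 and 1, Cycs with a log2 ratio of -1.09, was higher in the zygote, and the median of the members was -0.33. That removal gave 5 wider-list genes higher in the zygote and 1284 genes of the table higher in PB2. With the GC trend removed, 3 wider-list genes passed towards PB2 and 4 towards the zygote, their median was -0.03, 963 genes of the table were higher in PB2, and Casp9 had a log2 ratio of -0.18. The cause was not tested. Centring on the median of all genes (chosen after seeing the data) lowers the log2 ratios by 0.21 and left 0 members past 2-fold in PB2. By construction the thresholds moved the counts. At 1.5-fold 1 member, Cycs, was higher in the zygote, as were 7 wider-list genes and 1924 genes of the table, and 12 and 3642 were higher in PB2. At 4-fold 0 members and 0 wider-list genes were higher in PB2, 0 wider-list genes were higher in the zygote, and 264 and 74 genes of the table passed in PB2 and the zygote. Depth is unknown, so among the members counting error limits Casp6, Casp9 and Xiap most, by an amount that cannot be given. It also limits wider-list genes near the floor, such as Dffa.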
